A study of Mus musculus with 24 samples.

Results

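Arc, Homer1, Plk2, Plk3, Ptgs2, Rgs2, Gadd45b and Gadd45g are genes that neurons switch on after activity and whose products act at the synapse or as signalling effectors, rather than as transcription factors. The 8 genes were taken by name from the 47593 rows of the count table, and they were named with earlier results of these data known. All 8 passed the filter on low counts in every comparison. They were measured by RNA-seq of mouse hippocampus in 24 libraries, 3 for each of 8 groups.

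All mice were C57BL/6J and 8 to 12 weeks old, and the study's methods give them as male. The mice of 4 groups were wild type (WT) and those of the other 4 Tob knockout (Tob-KO), a constitutive deletion of the antiproliferative gene Tob that is present in every tissue. Within each genotype, 1 group had no fear conditioning (naive), and the others were taken after fear conditioning (15 min, 1 h or 3 h later), in which mice receive foot shocks in a conditioning chamber. No group analysed here received the chamber or the shock alone, so the effect of learning and that of shock or handling cannot be told apart.

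Total counts per library ran from 28847989 to 41595972. Tob1, the targeted gene, was counted higher in every library labelled Tob-KO (52.1 to 68.3 CPM, counts scaled to library size) than in every WT library (33.9 to 44.5 CPM), against the direction of the label. Which part of the gene is deleted is not given in the sources used here, so these counts do not check the label, and the groups are called the libraries labelled Tob-KO. The 8 hippocampal neuron markers were all present, with summed levels of 4292 to 4848 CPM. Choroid plexus markers differed widely between libraries of the same group: Ttr, with the highest median of the 10, ran from 3.63 to 4211 CPM. None of the 10 was at 0 in any library. Another of the 10 did not fall below 17.6 CPM, so it stood above Ttr where Ttr was lowest. As deviations from group means, members correlated with the mean of these markers from -0.618 (Pearson r, Arc) to 0.419 (Gadd45g). Gadd45b had -0.343 and Homer1 -0.278. Marker values are given beside some of the results, mainly those of Arc. In bulk tissue, fewer cells of a type and less RNA per cell cannot be told apart.

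Activity-induced effector genes are transcribed within minutes of strong synaptic input, in part through calcium and ERK signalling to transcription factors already present in the neuron. Their RNAs are mostly short-lived, so a rise after a single event is followed by a return towards the starting level. In the hippocampus they are widely used as marks of recently active neurons and are linked to the adjustment of synaptic strength after learning.

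Arc encodes a cytoskeleton-associated protein that promotes the removal of AMPA receptors from the synapse. The gene lies on chr15:74669083-74672570 of GRCm38 on the minus strand, with 3057 bases of annotated exon. In naive WT mice the 3 libraries held 117, 133 and 120 CPM, and 15 min after conditioning 377, 172 and 230 CPM. At 1 h they held 228, 237 and 170 CPM, and at 3 h 87.8, 86.9 and 160 CPM. All libraries at 15 min and at 1 h were above all naive libraries, and the 3 h libraries lay on both sides of the naive range. Of the 19500 genes tested, 2059 at 15 min and 3132 at 1 h did not overlap with naive in WT, in either direction.

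In the naive libraries labelled Tob-KO, Arc stood at 91.4, 80.3 and 81.8 CPM. The 15 min libraries of that genotype held 301, 150 and 177 CPM, and the 1 h libraries 192, 243 and 194 CPM. At 3 h the values were 54.7, 70.5 and 61.6 CPM, below every naive library of either genotype. Between the 3 h and the naive libraries labelled Tob-KO, 2906 of the 19500 genes tested did not overlap, in either direction. The spread within a group was largest at 15 min, with a coefficient of variation of 40.7% in WT and 38.5% in the libraries labelled Tob-KO, against 7.24% and 7.16% in naive mice.

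**Figure D1:**
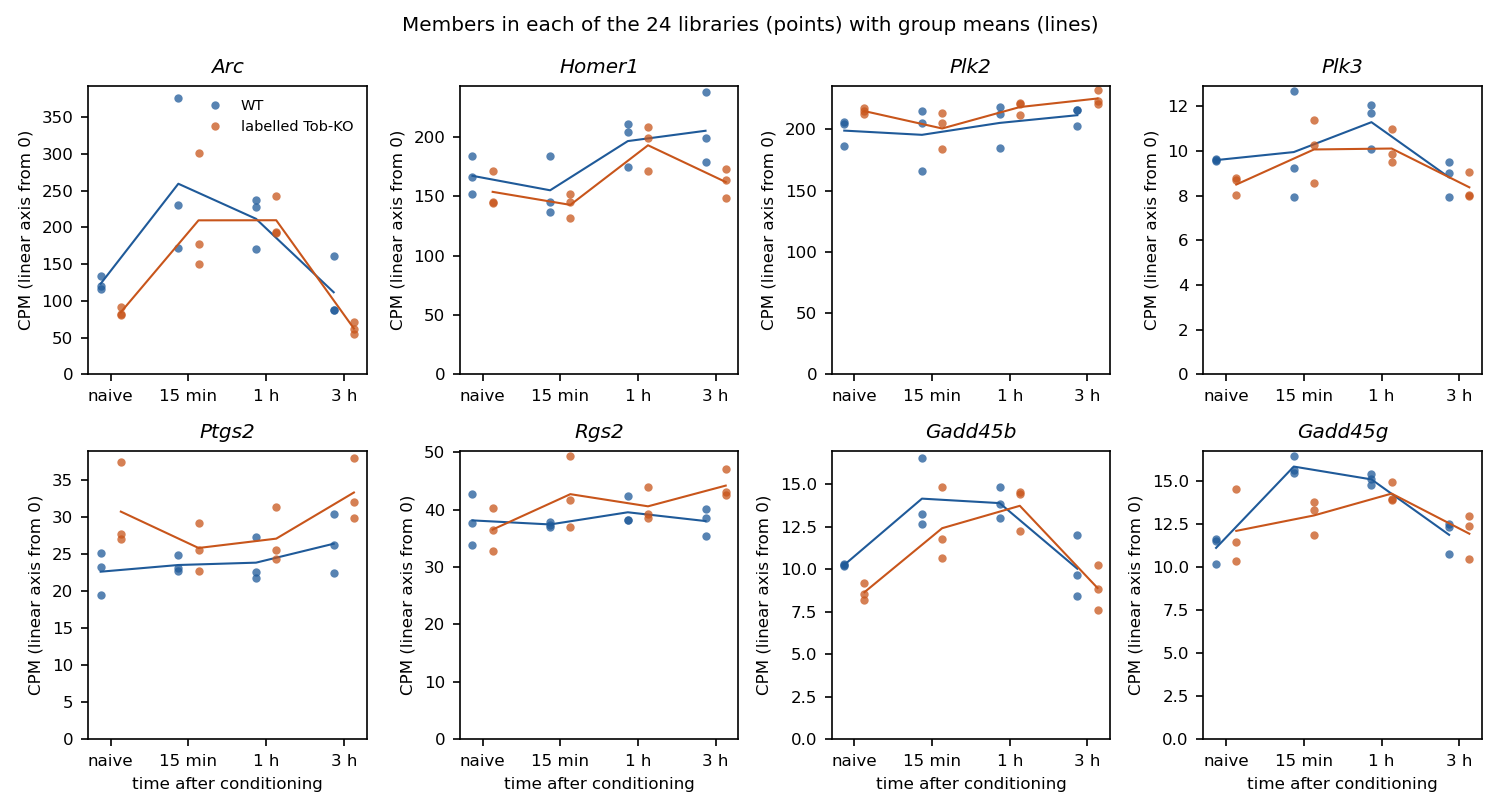
CPM (linear axes from 0) of the 8 members in each of the 24 libraries, by time after conditioning. Points are libraries, blue for WT and orange for those labelled Tob-KO, and lines join the means of the 3 libraries of a group. Arc, Gadd45b and Gadd45g stand highest at 15 min or 1 h and lower again at 3 h, where Arc in the libraries labelled Tob-KO is below all naive libraries, and Homer1 stands higher at 1 h than at 15 min.

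Averaged over the genotypes, Arc rose 15 min after conditioning by 1.19 on the log2 scale (SE 0.187, 6 libraries against 6, 2.29-fold, edgeR quasi-likelihood FDR 0.00151). At 1 h it was still higher than in naive mice by 1.05 (SE 0.186, 2.07-fold, FDR 0.00296), and between 1 h and 3 h it fell by 1.34 (SE 0.188, FDR 0.000658). The difference of 3 h from naive did not pass (-0.29, SE 0.187, FDR 0.649). The 3 calls were kept whichever of the 12 libraries was left out.

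In the 3 groups with the widest spread of Arc, the highest Arc library was also the one with the lowest Ttr. The highest Arc library of WT 15 min had Ttr at 3.63 CPM, and that of the 15 min libraries labelled Tob-KO had 29.04 CPM, where the other libraries of that group held 2881 and 1107 CPM. The 1 WT library at 3 h with Arc at 160 CPM had Ttr at 17.2 CPM, against 1852 and 2441 CPM in the other libraries. Summed over the 10 markers, WT 15 min libraries held 26.5 to 44.01 CPM and naive WT libraries 45.0 to 2478 CPM. With the mean of the markers as a covariate, Arc was still higher at 15 min (log2 change 0.98, FDR 0.00167) and at 1 h (1.11, FDR 0.000264), and still fell from 1 h to 3 h (-1.51, FDR 4.57e-05).

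Blood and vessel markers also differed at 15 min, where their 7 summed levels were 206 to 243 CPM in WT against 123 to 166 CPM in naive WT mice, and 158 to 181 CPM against 127 to 139 CPM in the libraries labelled Tob-KO. Of that list, Cldn5 and Flt1, both endothelial, rose at 15 min over both genotypes, by 0.85 (SE 0.146, FDR 0.00285) and 0.42 (SE 0.0738, FDR 0.00323), and S100a8, a neutrophil marker, was at 0 in part of the libraries. Of the 6 glia markers the astrocyte gene Aqp4 rose at 15 min by 0.32 (SE 0.0466, FDR 0.000675), and of the 8 striatum markers Penk rose from 1 h to 3 h by 0.44 (SE 0.116, FDR 0.0372). The part of these markers in the results was not tested.

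Gadd45b and Gadd45g encode small stress-inducible proteins that bind the kinase MAP3K4 and have been linked to active DNA demethylation at neuronal genes. Gadd45b lies on chr10:80930073-80932204 and Gadd45g on chr13:51846678-51848468, both on the plus strand of GRCm38. For these members and for Homer1 and Plk2, the 250 bases before the RefSeq start of the gene are shown. They were picked by their calls over both genotypes. Gadd45b and Gadd45g were called in the same comparisons over time. Homer1 was called only in those of 1 h with an earlier group, near the threshold, and Plk2 did not pass the test. RefSeq promoters were matched for 7 of the 8 members, and Arc is without an entry. Capitals mark every match, on either strand, of TATAAA (the TATA box), TGACGTCA (the cAMP response element, CRE), its core TGACG, the AP-1 site TGAGTCA and the CArG box of serum response factor. Windows are on GRCm38.p6, plus strand, and are written from the far end to the base before the start.
Gadd45b, chr10:80929841-80930090: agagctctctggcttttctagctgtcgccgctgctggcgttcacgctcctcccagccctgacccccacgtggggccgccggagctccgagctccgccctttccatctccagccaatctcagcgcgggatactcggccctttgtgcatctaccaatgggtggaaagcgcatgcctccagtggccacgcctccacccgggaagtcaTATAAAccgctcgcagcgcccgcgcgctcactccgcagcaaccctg
Gadd45g, chr13:51846425-51846674: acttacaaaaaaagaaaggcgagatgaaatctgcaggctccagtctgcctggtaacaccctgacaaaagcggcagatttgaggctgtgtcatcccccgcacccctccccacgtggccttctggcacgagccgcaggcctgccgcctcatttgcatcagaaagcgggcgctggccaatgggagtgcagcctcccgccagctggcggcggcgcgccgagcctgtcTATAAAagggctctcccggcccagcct
Homer1, chr13:93303507-93303756: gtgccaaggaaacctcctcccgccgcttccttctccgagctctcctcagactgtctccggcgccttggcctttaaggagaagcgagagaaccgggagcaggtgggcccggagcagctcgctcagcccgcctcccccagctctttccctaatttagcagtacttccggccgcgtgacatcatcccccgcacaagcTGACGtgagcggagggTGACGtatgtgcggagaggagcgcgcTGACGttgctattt
Plk2, chr13:110394794-110395043: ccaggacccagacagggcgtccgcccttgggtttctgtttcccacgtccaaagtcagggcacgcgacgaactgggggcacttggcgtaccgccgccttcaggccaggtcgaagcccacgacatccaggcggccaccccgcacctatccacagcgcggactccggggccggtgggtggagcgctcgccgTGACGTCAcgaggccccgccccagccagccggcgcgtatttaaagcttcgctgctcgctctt

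The TATA box stood 46 bases before the start of Gadd45b and 27 bases before that of Gadd45g, and 12.4% of the 32851 promoters held one in a window of this length. The Homer1 window held 3 copies of TGACG, a motif in 17.8% of promoters, and the other RefSeq start of Homer1 held none. Among the windows not shown, those of Plk3 and Rgs2 held 2 copies each and that of Ptgs2 held 0. Plk2 held the full CRE, a palindrome that contains TGACG on both strands and that 1.55% of promoters held. No member's window matched the AP-1 site (4.46% of promoters) or the CArG box (1.47%). The last 18 bases of the Gadd45b window lie in its first exon in the GENCODE annotation. These are matches of letters only, and they were not tested against the changes over time.

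Gadd45b in naive WT mice was 10.2, 10.3 and 10.3 CPM, the tightest of the groups. It stood at 16.5, 12.7 and 13.3 CPM at 15 min, at 13.8, 13.0 and 14.8 CPM at 1 h, and at 9.66, 8.40 and 12.0 CPM at 3 h. The libraries labelled Tob-KO held 9.20, 8.54 and 8.19 CPM when naive, 14.8, 10.6 and 11.8 CPM at 15 min, 14.5, 14.4 and 12.3 CPM at 1 h, and 10.2, 8.81 and 7.62 CPM at 3 h. In both genotypes the 15 min and 1 h libraries lay above all naive libraries of the same genotype. Of the 19500 genes tested, 2059 at 15 min and 3132 at 1 h did not overlap with naive in WT, in either direction. In the libraries labelled Tob-KO these numbers were 3742 and 4047.

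Over both genotypes Gadd45b rose by 0.49 at 15 min (SE 0.0975, 1.41-fold, FDR 0.00713) and by 0.55 at 1 h (SE 0.0976, 1.47-fold, FDR 0.00281). It fell by 0.55 from 1 h to 3 h (SE 0.0977, FDR 0.00345), and at 3 h its difference from naive was 0.0043 (SE 0.0987). Its 3 calls held whichever library was left out.

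Gadd45g in WT mice went from 11.6, 11.7 and 10.2 CPM when naive to 16.5, 15.5 and 15.6 CPM at 15 min. It was 15.1, 15.4 and 14.8 CPM at 1 h and 12.5, 12.4 and 10.8 CPM at 3 h. The libraries labelled Tob-KO held 10.3, 14.5 and 11.5 CPM when naive and 13.8, 11.9 and 13.3 CPM at 15 min, so that these groups overlapped. At 1 h and 3 h they held 15.0, 13.9 and 14.0 CPM and then 12.4, 10.5 and 13.0 CPM.

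Averaged over the genotypes, Gadd45g rose by 0.31 at 15 min (SE 0.0748, 1.24-fold, FDR 0.0234) and by 0.34 at 1 h (SE 0.0749, 1.27-fold, FDR 0.0104), and it fell by 0.30 from 1 h to 3 h (SE 0.0749, FDR 0.0282). The call at 1 h held whichever library was left out. The call at 15 min was lost without WT naive replicate 3, without replicate 1 or 3 of the naive libraries labelled Tob-KO, or without replicate 1 or 3 of their 15 min group (FDR up to 0.0677), and in the fit of only the libraries compared (FDR 0.117). The fall to 3 h was lost without WT 1 h replicate 1 or 2, WT 3 h replicate 3, replicate 1 or 2 of the 1 h libraries labelled Tob-KO or replicate 2 of their 3 h group (FDR up to 0.0786).

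Homer1 encodes a scaffold of the postsynaptic density that links group I metabotropic glutamate receptors to Shank and to IP3 receptors. Its short form, Homer1a, is the activity-induced product and uncouples these links. The gene lies on chr13:93299635-93405129, plus strand, with 12 annotated transcripts, and the counts add all of its forms, so a change of the short form alone is diluted. It overlaps the annotated transcripts Gm47075 by 2015 bases and Gm47088 by 1639 bases on the same strand. WT libraries held 184, 152 and 166 CPM when naive, 184, 145 and 137 CPM at 15 min, 175, 204 and 211 CPM at 1 h, and 199.5, 179 and 238 CPM at 3 h. Those labelled Tob-KO held 145, 146 and 171 CPM when naive, 152, 131 and 145 CPM at 15 min, 199, 172 and 209 CPM at 1 h, and 164, 173 and 149 CPM at 3 h.

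Homer1 was the member that rose later. It did not pass at 15 min (log2 change -0.11, SE 0.0818, FDR 0.489), was higher at 1 h than in naive mice by 0.28 (SE 0.0817, 1.21-fold, FDR 0.0462), and rose between 15 min and 1 h by 0.39 (SE 0.0818, 1.31-fold, FDR 0.0400). Both calls lie near the threshold. The first was kept in 4 of 12 fits with a library left out, those without WT naive replicate 1, WT 1 h replicate 1, replicate 3 of the naive or replicate 2 of the 1 h libraries labelled Tob-KO, and was lost without any other library (FDR 0.0299 to 0.111). The second was kept in 3 of 12, those without replicate 1 of WT 15 min, of WT 1 h or of the 15 min libraries labelled Tob-KO (FDR 0.00899 to 0.137). With library size alone in place of TMM scaling neither passed (FDR 0.0608 and 0.0522), and in the fit of only the libraries compared the second did not (FDR 0.0623).

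Plk2 and Plk3 encode Polo-like kinases, of which PLK2 acts in dendritic spines and phosphorylates the spine protein SPAR. Neither passed the quasi-likelihood test over 24 libraries in any comparison over time. Plk2 stayed between 166 and 232 CPM in the 24 libraries, with group means from 196 ± 25.9 CPM (SD, n = 3) in WT at 15 min to 225 ± 6.08 CPM in the 3 h libraries labelled Tob-KO. Its log2 changes from naive over both genotypes were -0.06 at 15 min, 0.03 at 1 h and 0.08 at 3 h (SE 0.0534 each).

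Plk3 in WT mice was 9.65, 9.54 and 9.60 CPM when naive, 12.7, 7.93 and 9.26 CPM at 15 min, 10.1, 12.1 and 11.7 CPM at 1 h, and 9.49, 7.95 and 9.01 CPM at 3 h. Over both genotypes its log2 change was 0.24 at 1 h against naive (SE 0.0945, FDR 0.143, or 0.0487 in the fit of only the libraries compared) and -0.31 at 3 h against 1 h (SE 0.0949, FDR 0.0712). Every 3 h library was below every 1 h library, but only just: the highest at 3 h held 9.494 CPM and the lowest at 1 h 9.497 CPM. The difference between 3 h and 1 h passed with DESeq2, in the fit of the libraries compared alone and with the choroid plexus covariate, with an FDR from 0.0255 to 0.0888 over the alternatives. The gene overlaps Tctex1d4 on the other strand by 84 bases, and the strand setting of the counting is not given in the sources used here.

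Ptgs2 encodes cyclooxygenase-2, the inducible enzyme of prostaglandin synthesis, and Rgs2 a GTPase-activating protein for G proteins of the Gq class. Neither passed in a comparison over time. The largest of their changes from naive over both genotypes was 0.17 for Ptgs2 (SE 0.0997, FDR 0.612) and 0.14 for Rgs2 (SE 0.0683, FDR 0.573), each at 3 h. Rgs2 ran from 32.7 to 49.4 CPM over the 24 libraries, the highest being a 15 min library labelled Tob-KO whose companions held 41.7 and 37.0 CPM.

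Counted over the members, 3 of 8 rose at 15 min over both genotypes (Arc, Gadd45b and Gadd45g), where 1.6% of the 19500 genes tested did. At 1 h 4 of 8 rose (these and Homer1), against 2.36% of all genes. From 15 min to 1 h 1 of 8 rose (Homer1), against 0.226%, and from 1 h to 3 h 3 of 8 fell (Arc, Gadd45b and Gadd45g), against 1.98%. In that last step 4 of 8 (Arc, Gadd45b, Gadd45g and, by a near tie, Plk3) had all 3 h libraries apart from all 1 h libraries, where 3.42% of all genes did. The median log2 change of the 8 was 0.12 at 15 min, 0.26 at 1 h and 0.06 at 3 h, and that of all genes 0.0017, -0.0030 and -0.0072.

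At 3 h against naive over both genotypes 0 of 8 passed the edgeR quasi-likelihood test, as did 0% of all genes. At an unadjusted p under 0.05 there was 1 member (Homer1, log2 change 0.19, FDR 0.520), where 1746 of the 19500 genes were. DESeq2 called 0 members among 22 genes in all.

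**Figure D2:**
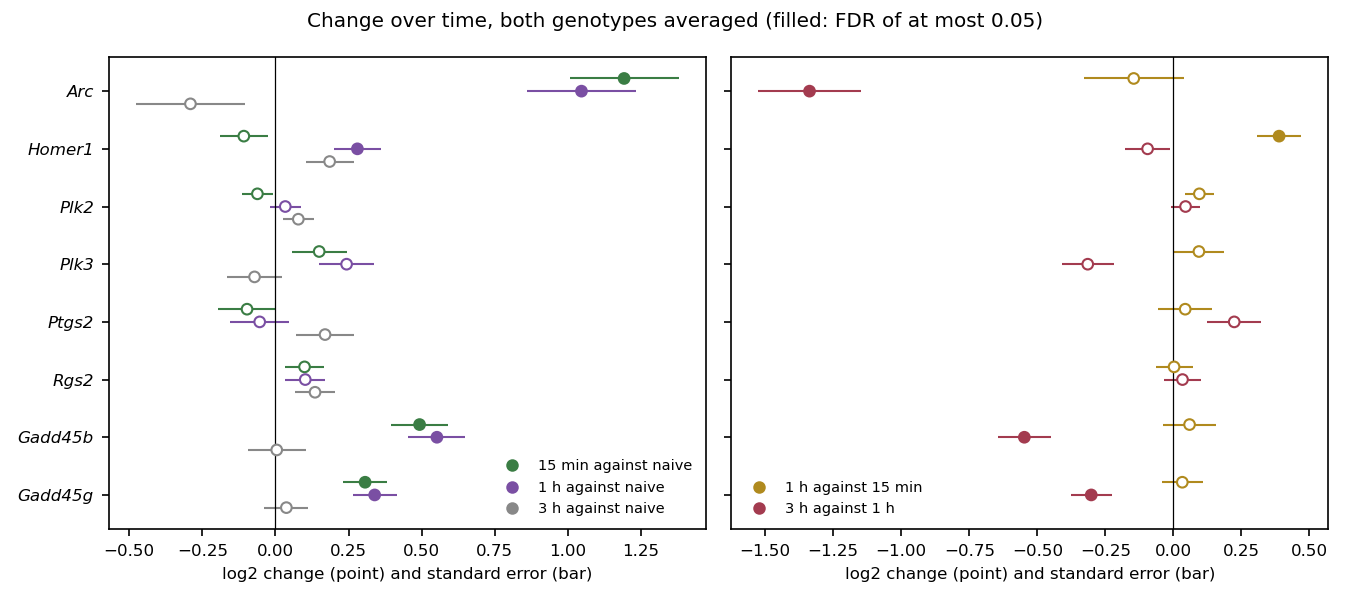
Log2 change of each member averaged over both genotypes, with bars for the standard error, against naive mice (left) and between neighbouring times (right). Filled points have an FDR of at most 0.05 over all 19500 genes. Arc moves by 1.19 at 15 min and by -1.34 from 1 h to 3 h, the Gadd45 genes move the same way by less, and Homer1 is filled in the 2 comparisons of 1 h with an earlier group.

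Within WT, 0 of 8 members passed at 15 min, where 0.0462% of all genes rose. An unadjusted p under 0.05 was found for 1699 of the 19500 genes and for 3 members: Arc (log2 change 1.08, SE 0.263, FDR 0.208), Gadd45b (0.47, SE 0.137, FDR 0.420) and Gadd45g (0.51, SE 0.106, FDR 0.113). DESeq2 called 1 of them, Gadd45g, among 42 genes in all. The exact test on the 6 libraries called 2, Arc and Gadd45g, among 46 genes in all. At 1 h in WT 0 of 8 passed against 0.118% of all genes. The same 3 had a p under 0.05 (2110 of the 19500 genes did), with log2 changes of 0.78, 0.44 and 0.44. DESeq2 called 1 (Gadd45g) among 180 genes in all, and the exact test 3 among 183. At 3 h in WT 0 of 8 passed, as did 0% of all genes, and DESeq2 and the exact test called 0 members (0 and 1 genes in all). There 1 member had an unadjusted p under 0.05 (Homer1, log2 change 0.30), where 779 of the 19500 genes did.

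Within the libraries labelled Tob-KO, 2 of 8 rose at 15 min, Arc by 1.31 (SE 0.266, 2.48-fold, FDR 0.0158) and Gadd45b by 0.52 (SE 0.139, 1.43-fold, FDR 0.0489), where 0.836% of all genes did. At 1 h the same members rose, Arc by 1.31 (SE 0.266, FDR 0.0253) and Gadd45b by 0.67 (SE 0.139, FDR 0.0286), where 0.421% of all genes did. At 3 h 0 of 8 passed, as did 0% of all genes. An unadjusted p under 0.05 was found for 1 member there (Rgs2, log2 change 0.28, FDR 0.413) and for 2071 of the 19500 genes. DESeq2 called 0 members there, among 27 genes in all.

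These calls within a genotype were lost when some libraries were left out, which also leaves fewer libraries in the fit. That of Arc at 15 min was lost without replicate 2 or 3 of the naive group or replicate 1 of the 15 min group (FDR 0.00573 to 0.0671 over the 6 fits) and in the fit of only the libraries compared (FDR 0.155), and that of Gadd45b was kept only without replicate 2 of the 15 min group (0.0213 to 0.194). At 1 h Arc was kept only without replicate 3 of the naive group or replicate 1 of the 1 h group (0.0484 to 0.141), and Gadd45b only without replicate 3 of the 1 h group (0.0449 to 0.146). The log2 changes in these fits were 0.95 to 1.5 for Arc and 0.38 to 0.62 for Gadd45b at 15 min, and 1.19 to 1.37 and 0.63 to 0.74 at 1 h. The 1 h libraries labelled Tob-KO all held high choroid plexus markers (2193 to 3196 CPM summed), where the naive ones held 77.1 to 4951 CPM. With the covariate, Arc was higher at 1 h by 1.42 (FDR 0.00542).

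A call in 1 genotype and not in the other does not show that the genotypes differ, so the difference of the changes was tested itself. At each of the 3 times after conditioning 0 of 8 members passed this interaction test, as did 0% of all genes. DESeq2 called 0 members and 0 genes in all each time. The change of Arc in the libraries labelled Tob-KO minus that in WT was 0.23 (SE 0.369) at 15 min, 0.53 (SE 0.370) at 1 h and -0.30 (SE 0.375) at 3 h. The 1 member with an unadjusted p under 0.05 was Gadd45g at 15 min, whose change was 0.41 smaller in the libraries labelled Tob-KO (difference -0.41, SE 0.150, FDR 0.981). At that time 939 of the 19500 genes had such a p. At 1 h and 3 h no member had one.

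The genotypes at a single time were compared with edgeR's exact test on 6 libraries, and a gene was called where its FDR did not exceed 0.05 and it differed by a factor of 2 or more. The kind of test and limits follow the methods of the study. In naive mice 0 of 8 members passed both limits, against 0.0218% of all genes. An unadjusted p under 0.05 was found for 2 members (Arc and Ptgs2), and for 742 of the 18364 genes tested. The counts at the later times, in order, were 0 of 8 as well, against 0.555%, 0.033% and 0.0274% of all genes. Under an unadjusted p of 0.05 there were 1, 0 and 4 members, where 1478 of 18364, 970 of 18169 and 725 of 18255 genes were. DESeq2 with the same limits called 0 members at each of the 4 times, among 5, 35, 4 and 4 genes in all from naive to 3 h. At 15 min all 10 choroid plexus markers passed both limits and were lower in WT (median log2 difference of Tob-KO minus WT 4.40). Of the 7 blood and vessel markers, 2 passed both limits there and were lower in the libraries labelled Tob-KO (median of the list -0.86). With the mean of the choroid plexus markers as a covariate in the fit of all libraries 0 of 8 members were called at that time. That fit called 0 genes in all, with or without the covariate, so this count cannot check the part of the markers.

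Arc in naive mice was lower in the libraries labelled Tob-KO, 84.5 ± 6.05 CPM against 123 ± 8.93 CPM (SD, n = 3 each), without overlap. The log2 difference was -0.54 (0.687-fold), within the fold limit, and the FDR of the exact test was 2.1e-05. Without the fold limit 1 of 8 members, Arc, was therefore called, where 0.0381% of all genes were. This FDR depended on the test: the quasi-likelihood test gave 0.346 on the same 6 libraries and 0.566 with the spread taken from all 24, and DESeq2 gave 2.61e-06. Over the fits with a library left out the log2 difference ran from -0.60 to -0.49.

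At 3 h Arc was again lower in the libraries labelled Tob-KO without overlap, 62.3 ± 7.93 CPM against 112 ± 42.2 CPM, but the difference did not pass (-0.85, 0.556-fold, FDR 0.133). At 15 min and 1 h the genotypes overlapped, with log2 differences of -0.31 (SE 0.302) and -0.01 (SE 0.123). With the choroid plexus covariate in the fit of all libraries, an alternative chosen after seeing the data, the 4 log2 differences from naive to 3 h were -0.45, 0.02, 0.18 and -0.93, and none passed.

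In naive mice 5 of 8 members had groups that did not overlap, where 11.5% of all genes did. Arc, Plk3 and Gadd45b were lower in all libraries labelled Tob-KO, and Plk2 and Ptgs2 higher. At 3 h 4 of 8 did not overlap, where 12.2% of all genes did, Arc and Homer1 being lower and Plk2 and Rgs2 higher. Homer1 at 3 h was 162 ± 12.3 CPM against 205 ± 29.96 CPM (log2 difference -0.34, FDR 0.321). At 15 min 1 of 8 did not overlap, where 13.5% of all genes did. This was Gadd45g, lower in the libraries labelled Tob-KO (log2 difference -0.29, FDR 0.354). The summed blood and vessel markers were also apart at 15 min (206 to 243 CPM in WT, 158 to 181 CPM in the libraries labelled Tob-KO). Their part in the difference of Gadd45g was not tested. At 1 h 0 of 8 members did not overlap, against 11.5% of all genes. Apart from Arc in naive mice, none of these differences of members had an FDR of at most 0.05 with the exact test.

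Ptgs2 and Plk2 had a higher mean in the libraries labelled Tob-KO at all 4 times, and Arc, Homer1 and Gadd45b had a lower one. For Ptgs2, naive libraries held 23.3, 25.2 and 19.5 CPM in WT and 27.0, 37.5 and 27.8 CPM in those labelled Tob-KO. Its 3 h libraries held 22.5, 26.3 and 30.5 CPM and 29.9, 38.1 and 32.1 CPM. At 15 min the values were 22.7, 23.1 and 24.9 CPM and 22.8, 29.2 and 25.6 CPM, and at 1 h 27.3, 21.8 and 22.6 CPM and 31.4, 24.4 and 25.6 CPM. Over all times, 12 libraries against 12, 0 of 8 members passed the quasi-likelihood test, against 0.462% of all genes. An unadjusted p under 0.05 was found for 5 members, and for 2595 of the 19500 genes. Among the members Ptgs2 had the lowest FDR, 0.0754, with a log2 difference of 0.27 (SE 0.0707, 1.21-fold). It was the 1 member that DESeq2 called (FDR 0.0148), among 293 genes in all. Arc followed with -0.42 (SE 0.138, FDR 0.178).

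**Figure D3:**
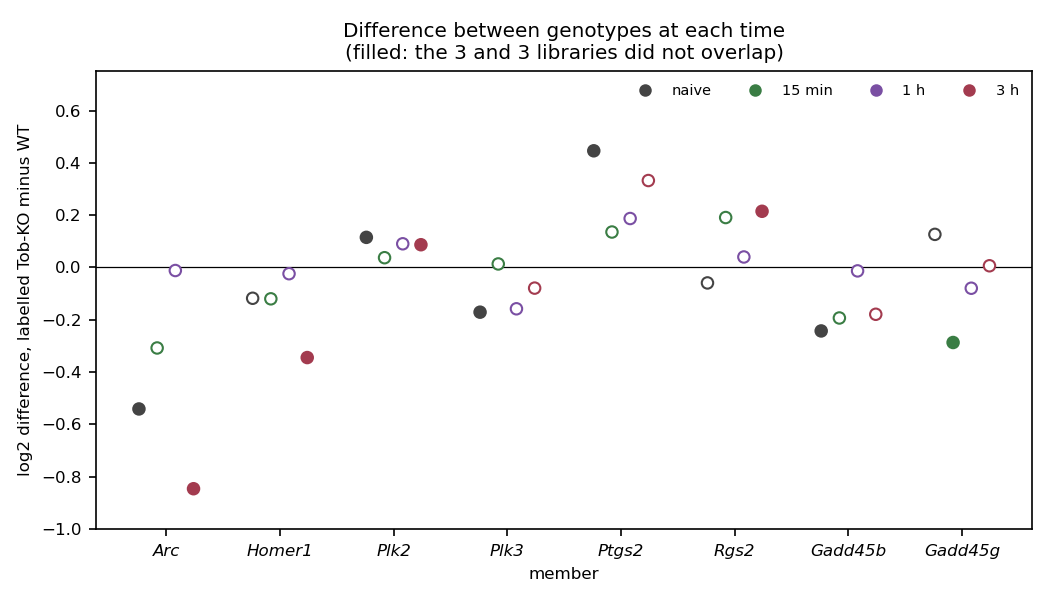
Log2 difference between libraries labelled Tob-KO and WT libraries for each member when naive and at each time after conditioning, without error bars. Filled points mark times at which the 3 libraries of each genotype did not overlap, which holds for 5 members in naive mice, 1 at 15 min (Gadd45g), 0 at 1 h and 4 at 3 h. Arc is at -0.54 in naive mice and -0.85 at 3 h. Ptgs2 and Plk2 are above 0 at all 4 times, and Arc, Homer1 and Gadd45b are below 0 at all 4.

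Ordered by group mean, Arc ran from WT at 15 min (260 CPM) through the 1 h groups of both genotypes and the 15 min libraries labelled Tob-KO (212, 210 and 210 CPM) to naive WT (123 CPM), WT at 3 h (112 CPM), and the naive and 3 h libraries labelled Tob-KO (84.5 and 62.3 CPM). No pair of neighbours in this order differed in the quasi-likelihood fit (FDR of at least 0.188), and none did for the other 7 members. The step with FDR 0.188 was that from the 15 min libraries labelled Tob-KO to naive WT.

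Levels of different genes were compared per kilobase of annotated exon (RPKM). In naive WT mice Plk2 and Arc stood highest, at 44.3 ± 2.46 and 40.3 ± 2.92 RPKM (SD, n = 3). Homer1 followed at 14.0 ± 1.33, Rgs2 at 10.5 ± 1.24 and Gadd45g at 9.48 ± 0.713 RPKM. Gadd45b was at 6.45 ± 0.0214, Ptgs2 at 4.95 ± 0.626 and Plk3 at 3.79 ± 0.0231 RPKM. At 15 min in WT Arc stood at 84.9 ± 34.5 RPKM, above Plk2 at 43.6 ± 5.77, and in the 3 h libraries labelled Tob-KO at 20.4 ± 2.595 RPKM, below Plk2 at 50.2 ± 1.36. The exon length is the union of all annotated transcripts, 11976 bases for Homer1, so levels of genes with many forms are understated.

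Among 14449 genes, the 3 whose log2 CPM followed Arc most closely over the 24 libraries were Junb (Pearson r 0.958), Nr4a1 (0.954) and Fos (0.933), all immediate early transcription factor genes. For Gadd45b they were Junb (0.936), Nr4a1 (0.913) and Arc itself (0.911). Homer1 was closest to Dio2 (0.829) and Egr3 (0.825), Plk3 to Frmd6 (0.887), Chrm4 (0.859) and Egr1 (0.848), and Gadd45g to Gna13 (0.820), Apold1 (0.801) and Klf2 (0.799). Plk2 was closest to Atl1 (0.845), Kalrn (0.836) and Pde4dip (0.836), Ptgs2 to Prss23 (0.808), Pvrl3 (0.803) and Arpc2 (0.789), and Rgs2 to Nudt11 (0.783), 1110004F10Rik (0.761) and Ywhaq (0.761). These values describe the libraries, which share times, genotypes and tissue makeup.

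Between members, Arc and Gadd45b had the highest r, and it was 0.680 when each value was taken as the deviation from its group mean. Arc and Plk3 had 0.719 over the libraries and 0.575 within groups. Arc and Gadd45g had 0.617 over the libraries but -0.06 within groups. Their likeness thus lay in the group means, which differ by time and genotype, and not in the differences between libraries of 1 group. Their courses were not alike throughout: at 15 min in the libraries labelled Tob-KO, Arc rose by 1.31 and Gadd45g changed by 0.10 (quasi-likelihood FDR 0.671). Ptgs2 ran against Plk3 (-0.592) and Arc (-0.510) over the libraries, with -0.449 and 0.0092 within groups.

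**Figure D4:**
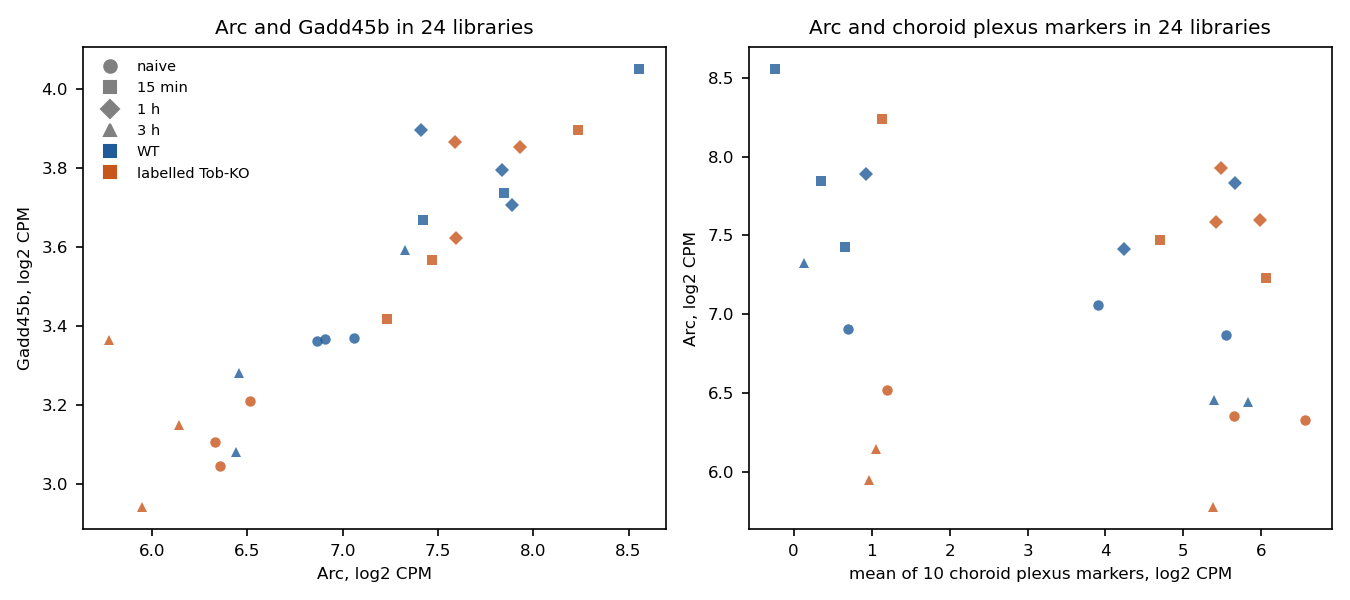
Left, log2 CPM of Gadd45b against that of Arc in the 24 libraries (r = 0.911). Right, log2 CPM of Arc against the mean log2 CPM of the 10 choroid plexus markers, which spans -0.24 to 6.57. Marker shape gives the time and colour the genotype label. Each of the 4 times has libraries at both ends of the choroid plexus axis, and the 2 highest Arc values lie at the low end.

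The other genes of these pathways were taken as fixed lists, chosen with earlier results of these data known. Of 12 other activity-regulated early genes, 11 rose at 15 min over both genotypes (median log2 change of the list 1.06), where 1.6% of all genes did. Among them Fos rose by 2.13 (SE 0.205, FDR 6.98e-06), Junb by 0.99 and Nr4a1 by 0.70. At 1 h 7 of the 12 were still higher than in naive mice (median 0.79), against 2.36% of all genes. From 1 h to 3 h 9 fell (median -0.75), Fos by 1.68, where 1.98% of all genes fell. At 3 h 0 of the 12 differed from naive (median 0.0078), as did 0% of all genes. Egr3 was the 1 of 12 that passed at none of these times (0.14 at 1 h, SE 0.082, FDR 0.351).

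Of 18 partners of Homer and Arc at the excitatory synapse, 0 passed at 15 min, 1 h or 3 h over both genotypes. Homer2 changed by 0.05 at 15 min (SE 0.045) and Homer3 by -0.19 (SE 0.105). Within the libraries labelled Tob-KO, Dnm2, a dynamin of endocytosis, fell by 0.24 at 15 min (SE 0.054, FDR 0.0241), where 1.68% of all genes fell. None of the 3 other Polo-like kinases (Plk1, Plk4 and Plk5) and none of the 12 genes of prostaglandin synthesis and its receptors passed at these times, Ptgs1, the constitutive cyclooxygenase, changing by 0.07 (SE 0.076) at 15 min.

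Of 15 other regulators of G-protein signalling, Rgs20 rose by 0.36 (SE 0.068, FDR 0.00617) and Rgs5, a pericyte gene, by 0.27 (SE 0.071, FDR 0.0362) at 15 min over both genotypes, and Rgs11 fell by 0.65 (SE 0.180, FDR 0.0437), where 2.75% of all genes fell. At 1 h Rgs11 was lower than in naive mice by 0.61 on the log2 scale (log2 change -0.61, SE 0.180, FDR 0.0471). Rgs4 changed by 0.16 (SE 0.105, FDR 0.412). Of 12 genes of the Gadd45, stress kinase and DNA demethylation list, Tet2, an enzyme that oxidizes methylcytosine, fell by 0.20 at 15 min (SE 0.049, FDR 0.0252) and by 0.18 at 1 h (SE 0.049, FDR 0.0324), where 3.52% of all genes fell at 1 h. Gadd45a, the third gene of the Gadd45 family, changed by 0.24 at 15 min (SE 0.134, FDR 0.315).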

How the data were processed

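Hippocampal poly(A) RNA of 24 mice was sequenced as paired-end directional libraries. Per the labels, the submitters' processing notes and the study's methods, the authors aligned reads to GRCm38 with STAR 2.6.1d and counted them per gene with HTSeq 0.9.0, and the deposited table holds these unnormalized counts. The gene annotation and strand setting of the counting are not given in the sources used here. The column names of the 15 min libraries give 0 h, which the series' design text equates with 15 min.

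Groups were taken from the sample titles. The replicates are described as biological. The members and the gene lists were chosen with earlier results of these data known. Genes with at least 0.2 CPM in 2 of the libraries of a fit were tested. Changes over time, interactions and the comparison over all times came from edgeR 4.0.16 (R 4.3.3) quasi-likelihood tests over 24 libraries with TMM normalization, with no fold limit. Genotypes at 1 time were compared with the edgeR exact test on 6 libraries (FDR up to 0.05, and a factor of 2 or more), and the SE beside such a difference is that of the quasi-likelihood fit of the same libraries. FDR is the Benjamini-Hochberg adjusted p over all genes tested. DESeq2 1.42.0 was an alternative. The tests were also run on simulated counts, drawn independently for each gene. That run held no differences in tissue makeup shared across genes, so it cannot show how the tests behave with them.

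CPM are TMM-scaled, and log2 CPM used a prior count of 2. Likeness was taken over genes with a mean of at least 1 CPM. Exon lengths and coordinates come from GENCODE M21 on GRCm38 and promoters from RefSeq. Named genes were all members, the 3 genes most like each, genes of the lists that passed in a comparison over time (at most 4 a list by size of change), near family members and Tob1. One gene that this rule names is not reported here. Junb, Nr4a1 and Egr3 of the early gene list are named for their likeness to members. No 2 libraries of a group agreed within sampling noise (chi-square per degree of freedom 3.02 to 17.0).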

Additional observations from a re-analysis of the deposited data

How the results depend on the processing

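Of 152 pairs of member and comparison, 24 were called in the fits reported or in an alternative, and 441 alternative values were set against their 24 reported values: 362 kept the direction and the side of the threshold, 63 no longer passed, 16 newly passed and 0 changed sign. Among the other 128 pairs, 42 changed sign in some alternative, with a size of at most 0.178. The number of members called differed as follows. In WT at 15 min, with 0 in the report, it was 1 with DESeq2, 1 with no filter, 1 with the choroid plexus covariate and 2 with the exact test on 6 libraries. These settings called 42, 20, 13 and 46 genes in all. In WT at 1 h, also 0, it was 1 with DESeq2 and 3 with the exact test (180 and 183 genes in all). For the group labelled Tob-KO at 15 min, with 2 in the report, it was 1 with RLE normalization, 1 with the exact test and 0 in the fit of only the libraries compared. These settings called 439, 181 and 5 genes in all, against 490 in the report. A fold limit of 2 left 1 member within the libraries labelled Tob-KO at 15 min and 1 at 1 h, 1 over both genotypes at 15 min, at 1 h and from 1 h to 3 h, and 0 from 15 min to 1 h, where library size alone and the fit of only the libraries compared also gave 0. In the same order, the fold limit left 40, 23, 35, 50, 24 and 7 genes in all, and the other settings called 56 and 24. Over both genotypes, the fit of only the libraries compared called 2 members at 15 min (3 in the report) and 5 at 1 h (4 in the report), library size alone called 3 at 1 h, and from 1 h to 3 h (3 in the report) DESeq2, the fit of only the libraries compared and the choroid plexus covariate each called 4. In the same order, these settings called 103, 955, 1096, 975, 937 and 615 genes in all. With no fold limit 1 member was called between the genotypes in naive mice, and DESeq2 called 1 over all times (7 and 293 genes in all). The causes were not tested beyond what the construction of each alternative shows.

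With 1 library left out, the members called ranged from 0 to 2 at 15 min and 0 to 1 at 1 h in the libraries labelled Tob-KO, from 0 to 1 from 15 min to 1 h, and from 0 to 1 between the genotypes over all times, where the 1 was Ptgs2 without WT 1 h replicate 1 (FDR 0.0458). They ranged from 2 to 3 at 15 min, 3 to 4 at 1 h and 2 to 3 from 1 h to 3 h over both genotypes. The counts over all genes in these fits are not given. A loss of calls among the members can therefore not be told from a general loss with fewer libraries.

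Same-numbered libraries of the groups compared correlated in their deviations from the group means by -0.418 to 0.360, and in no comparison were all 3 pairs over 0.1, so the numbers were not taken as pairs. With the replicate block the number of members called was the same in every comparison, 3 at 15 min and 4 at 1 h over both genotypes. In those 2 comparisons the block fit called 714 and 1018 genes in all, against 848 and 1148 in the report. TMM moved log2 changes by at most 0.02 against library size alone. With 3 libraries a group, the SE of the change of Arc at 15 min was 0.263 in WT and 0.266 in the libraries labelled Tob-KO.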
